A study of Mus musculus with 6 samples.

Results

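Processed pseudogenes are copies of messenger RNAs that were reverse-transcribed and inserted at another place in the genome. A copy usually lacks the introns and the promoter of the gene it came from, here called its parent gene, and most copies have collected mutations that break the reading frame. Genes that are transcribed strongly in many cells, such as those of ribosomal proteins and glycolytic enzymes, have left many copies, so in any tissue part of the RNA-seq reads falls on sequence that a parent gene and its copies share.

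The transcripts described here are the rows of the deposited tables whose gene has the GENCODE M21 type processed pseudogene or transcribed processed pseudogene and whose estimated counts, summed over the 6 libraries, were at least 20. They number 1501 of 118783 listed transcripts and belong to 1454 genes. Of 10550 listed transcripts of the 2 gene types, 5316 were at 0 in every library and 3733 were above 0 but under the limit. The members comprise 1310 processed and 191 transcribed processed pseudogene transcripts. They were selected on their summed counts, so their levels are given as a description. Just inside the limit lay Gm14220, Gm14975 and Gm14834, each with a sum of 20, and just outside it Gm18026, Gm5750 and Gm6375, with sums of 19.98, 19.92 and 19.84. At this low end the counts can rest on 1 library: of the 20 counts of Gm14975, 19 came from Tet2 WT replicate 2, and 343 members in all would have fallen under the limit without their highest library.

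The libraries hold RNA of macrophages sorted from digested hearts of C57BL/6J mice, cells that came from donor haematopoietic progenitors. Tet2 KO donors carried the Tet2 knockout and Tet2 WT donors did not. The Tet2 enzyme oxidises methylated cytosine in DNA, and blood clones that have lost it expand with age in clonal haematopoiesis. Each genotype had 3 libraries, and the question put to them here is which pseudogene transcripts differ with the donor's Tet2. The recipients were not conditioned, so they keep blood cells of their own. The gate of the sort, the age of the mice, the deleted part of Tet2 and the number of animals behind each library are not given in the sources used here. The p-values therefore reflect only how far these libraries differ from each other, and that spread may be technical.

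The libraries held 37349505 to 55771087 estimated counts. Members took 0.220, 0.292 and 0.231% of them in the Tet2 KO libraries and 0.264, 0.310 and 0.256% in the Tet2 WT libraries, in the order of the replicate numbers, and the ranges of the genotypes overlap. Tet2 was not lower in Tet2 KO: its TMM-normalised level was 81.1, 82.5 and 78.2 CPM (counts scaled to 1000000 per library) there and 57.5, 76.0 and 60.8 CPM in Tet2 WT (log2 fold change 0.32 ± 0.14 SE, edgeR adjusted p = 0.159). The deleted part is not known, and reads outside it say nothing on the genotype. All 16 pan-macrophage markers were detected, and their summed level was 31783 to 37931 CPM in Tet2 KO against 20494 to 27892 CPM in Tet2 WT, with 12 of 16 called higher. The 14 fibroblast markers were all called lower in Tet2 KO, with a summed level of 2153 to 4128 CPM against 16610 to 31132 CPM. No marker of either list was at 0 in every library. The 6 erythroid markers summed to 323 to 713 CPM in Tet2 KO and 34.0 to 260.2 CPM in Tet2 WT, with 1 of 5 tested called higher and 1 at 0 in every library. Of 4 tested B cell markers 2 were called higher, with sums of 439 to 821 and 353 to 454 CPM, which overlap. Cardiomyocyte, endothelial and T cell markers had sums that overlap, with 1 endothelial marker called lower. The part of these cells in the results was not tested. In bulk RNA, fewer cells of a type and less RNA per cell cannot be told apart.

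How far a count on a member can be tied to the member depends on its sequence. A 31-mer is the unit by which kallisto places a read, and a member whose 31-mers all occur in transcripts of other genes receives counts only as the model divides them. The median member had 74.7% of its 31-mers in no listed transcript of another gene, with quartiles of 27.1 and 95.8%. Of the members, 83 had no unique 31-mer, 139 had some but under 10%, 339 had 10 to under 50% and 939 had at least 50%. The first pair of classes had the fewest transcripts but held 62.8% of all counts on members. Among the members 6 pairs, 12 transcripts, have identical sequences, and in all 6 pairs the counts were the same within 0.1%.

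**Figure D1:**
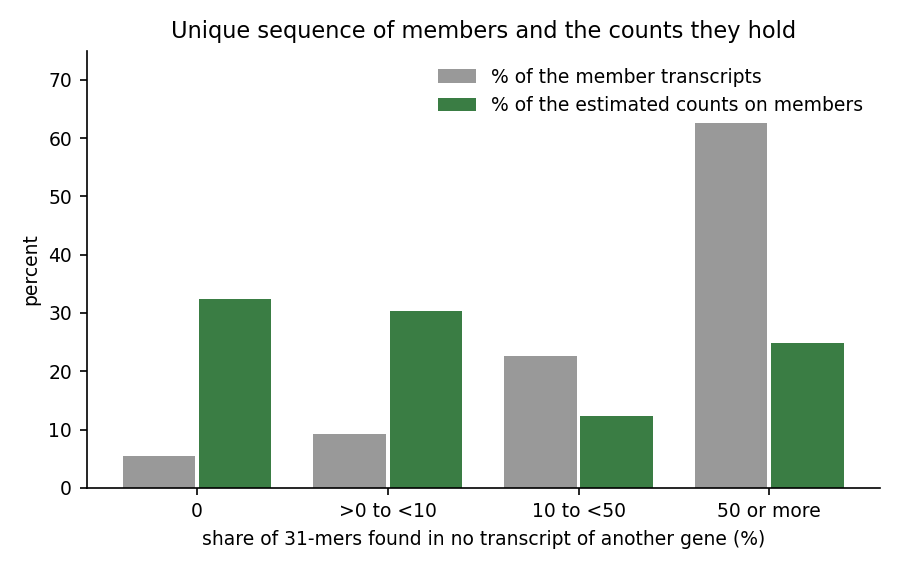
Percent of the member transcripts (grey bars) and percent of the estimated counts on members over all libraries (green bars) by the share of a member's 31-mers found in no transcript of another gene. Members without a unique 31-mer are 5.53% of the transcripts and hold 32.4% of the counts, and those with at least 50% are 62.6% of the transcripts and hold 24.9%.

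The sequences of 3 copies beside their parents, of Rps4l beside the gene it resembles below the limit set for parents, and of Gm12250, which has no parent, show the range from a perfect copy to a diverged one. Each window of 80 bases is centred on a junction between 2 exons of the parent's coding sequence, is read 5' to 3' on the strand of the transcript, comes from the GENCODE M21 transcripts on GRCm38, and has in capitals the positions at which copy and parent differ. For Gm13835 (chr6:31142377-31142456, minus strand) and the proteasome subunit gene Psma3 (chr12:70984555-70984594 and chr12:70984672-70984711, plus strand), none of the 80 positions differ.
Gm13835: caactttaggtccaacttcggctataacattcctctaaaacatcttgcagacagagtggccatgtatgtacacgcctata
Psma3: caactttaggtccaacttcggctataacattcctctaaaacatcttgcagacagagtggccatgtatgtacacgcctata
For Gm13689 (chr2:80550222-80550301, minus strand) and Ngly1, which removes sugar chains from misfolded proteins (chr14:16249458-16249497 and chr14:16254642-16254681, plus strand), 4 positions differ.
Gm13689: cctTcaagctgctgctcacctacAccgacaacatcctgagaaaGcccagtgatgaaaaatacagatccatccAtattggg
Ngly1: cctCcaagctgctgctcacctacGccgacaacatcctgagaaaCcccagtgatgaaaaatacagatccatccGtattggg
For Gm7162 (chr17:12820038-12820117, minus strand) and Rangap1, the activator of the GTPase Ran in nuclear transport (chr15:81712096-81712135 and chr15:81712819-81712858, minus strand), 7 positions differ.
Gm7162: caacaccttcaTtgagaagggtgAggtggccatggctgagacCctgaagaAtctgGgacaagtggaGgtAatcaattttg
Rangap1: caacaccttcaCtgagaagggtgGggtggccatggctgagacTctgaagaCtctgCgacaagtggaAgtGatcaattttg
For Rps4l (chr6:148354751-148354830, plus strand) and the ribosomal protein gene Rps4x (chrX:102187963-102188002 and chrX:102188294-102188333, minus strand), 24 positions differ.
Rps4l: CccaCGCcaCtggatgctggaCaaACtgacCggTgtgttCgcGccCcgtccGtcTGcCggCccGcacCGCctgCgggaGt
Rps4x: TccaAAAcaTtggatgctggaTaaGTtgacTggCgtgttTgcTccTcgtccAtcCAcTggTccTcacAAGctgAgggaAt
The window of Gm12250 (chr11:58187759-58187838, plus strand) starts at its first ATG, and no 31-mer of this member occurs in a transcript of another gene.
Gm12250: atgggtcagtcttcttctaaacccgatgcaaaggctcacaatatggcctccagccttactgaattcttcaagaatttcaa
These 3 copies and Rps4l run across the junction without an intron, and the number of differing positions rises from 0 in Gm13835 to 24 in Rps4l. For each pair, the junction window with the most differing positions was taken, so a window can differ more than the whole match does.

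Most members had a parent. At 80% identity or more over at least 50% of the member, 1116 members matched a protein-coding gene, and 947 of these were in the parent's orientation and included coding sequence, here called coding-sequence copies. They are copies of 506 genes at a median identity of 94.1%, with quartiles of 88.1 and 98.6%, and 60 members were identical to their parent over their whole length, none of them with a unique 31-mer. In 116 members more than 1 coding gene was as close. Of 116 members whose symbol ends in -ps with a number, the matched parent has the symbol before the suffix in 89. The glycolytic enzyme gene Gapdh had the most copies among the members, 40, followed by the ribosomal protein genes Rps2 with 24 and Rpl7a with 21, the chromatin protein gene Hmgb1 with 20, Rpl21 with 16 and the RNA-binding protein gene Hnrnpa3 with 13. Copies of cytosolic ribosomal protein genes were the largest group, 250 members with 18.4% of the counts on members. Copies of chaperone and prolyl isomerase genes were only 26 members but held 7.70%, most of it on Gm10123, the copy of Ppia.

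Of the 8 members with the highest level per length, 6 were coding-sequence copies, and the other 2 were Gm46223 and Gm12481. Gm10123, identical to the prolyl isomerase gene Ppia, stood at 807, 900 and 725 TPM (transcript level per length, summing to 1000000 in a library) in the Tet2 KO libraries and 689, 831 and 769 TPM in the Tet2 WT libraries. The genotypes overlap. Rps23-ps1, a copy of a ribosomal protein gene, followed at 220, 453 and 217 TPM in Tet2 KO against 400, 434 and 367 TPM in Tet2 WT, and Gm1821, a copy of the polyubiquitin gene Ubb, came next at 420, 295 and 383 against 267, 262 and 315 TPM. Gm10177, a copy of the translocon subunit gene Sec61g, had 213, 223 and 205 TPM in Tet2 KO against 289, 271 and 269 TPM in Tet2 WT, where each Tet2 KO library was below each Tet2 WT library. The fit per gene on counts did not call this difference (log2 fold change -0.19 ± 0.12, adjusted p = 0.349). Tpt1-ps3, Gm15500 and Gm12481 had means of 201, 189 and 199 TPM in Tet2 KO against 248, 216 and 205 TPM in Tet2 WT. Gm12481 lies over an exon of Fam221b on the opposite strand and matches it, at 100% identity, outside its coding sequence. The match to Fam221b is thus an overlap at 1 place in the genome and not a parent elsewhere. Counting Fam221b, 2 coding genes were as close to Gm12481, which has no unique 31-mer, and the other one was not examined. Fam221b itself stood at 0.411 to 0.756 TPM. None of these but Gm1821 was called. Without Tet2 KO replicate 2, Rps23-ps1 was called lower (log2 fold change -0.73, edgeR adjusted p = 0.0114, against -0.25 and 0.651 with all libraries).

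Among these members of high level Gm46223 had the most sequence of its own, with 91.3% unique 31-mers and no coding parent. It stood at 186, 201 and 291 TPM in Tet2 KO against 234, 235 and 274 TPM in Tet2 WT, which overlap (log2 fold change 0.04 ± 0.17, adjusted p = 0.919). Of the members with at least 50% unique 31-mers it had the highest mean count, and Gm8818, Gm3052, Gm12250, Rps4l and AC166110.3 came next. Gm8818 stood at 56.1, 29.0 and 54.7 TPM in Tet2 KO against 34.5, 40.2 and 26.2 TPM in Tet2 WT, and Gm3052 at 9.57, 15.7 and 11 against 16.8, 19.9 and 15.7 TPM. Neither was called (log2 fold changes 0.62 ± 0.26 and -0.37 ± 0.22, adjusted p = 0.152 and 0.313).

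Some copies held more counts than their parents. Among 924 genes whose main transcript is a coding-sequence copy, the median level per length was 0.550% of the parent's, and 549 stood under 1% of it. In 35 genes, however, the copy had more counts than the parent, and in 56 it had the higher level per length. Gm15500, which matches the ribosomal protein gene Rpl5 at 100% identity and has 0.101% unique 31-mers, took 4219, 7054 and 6190 estimated counts in the Tet2 KO libraries and 6943, 7687 and 6191 in the Tet2 WT libraries. That was 92.4, 93.4 and 92.1% of the counts of the pair in Tet2 KO and 91.1, 90.6 and 90.1% in Tet2 WT, so Rpl5 itself was left with 8.26 to 14.6 TPM in each library. Gm10177 took 79.0 to 82.3% of the counts of its pair with Sec61g. Gm10275, a copy of Rpl12, had 16785 counts over all libraries against 2610 on Rpl12, Mrpl23-ps1 had 12981 against 3464 on the mitochondrial ribosomal protein gene Mrpl23, and Gm10175 had 11052 against 7700 on the ATP synthase gene Atp5g2; these 3 were picked with their values known. The gene-level values of such parents therefore hold the smaller share of the reads that the pair received.

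**Figure D2:**
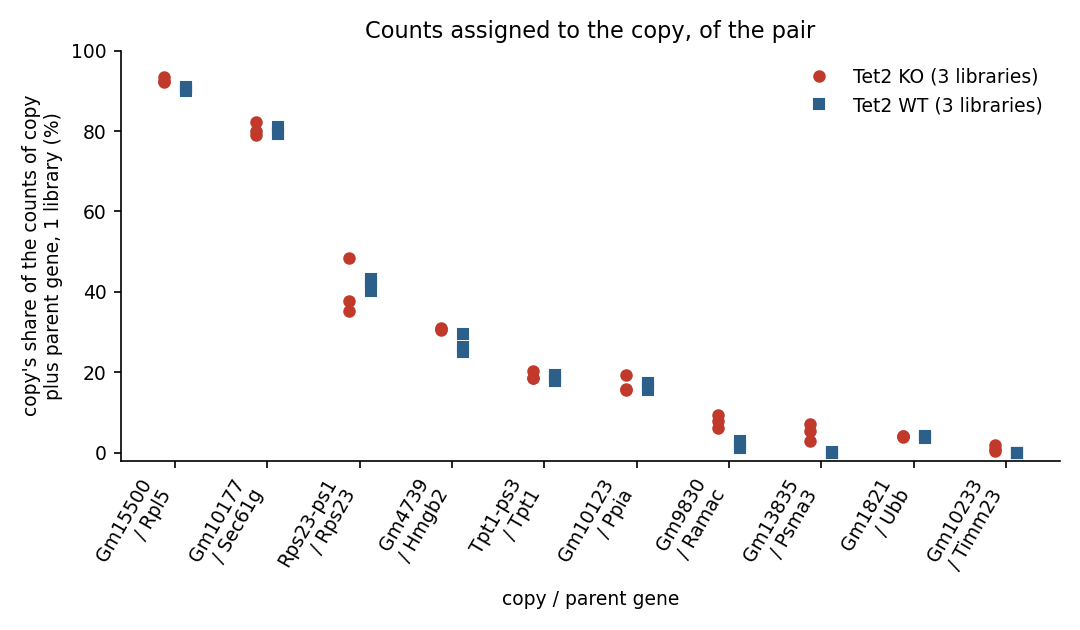
Share of the estimated counts of copy plus parent gene that was assigned to the copy, in percent, for 10 named pairs, with 1 point per library (circles Tet2 KO, squares Tet2 WT). Gm15500 holds over 90% of its pair in each library, while Gm13835 and Gm10233 hold up to 7.03 and 1.89% in Tet2 KO and next to none in Tet2 WT.

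Few members differed between the genotypes. Of 1454 member genes, 809 passed the expression filter, and 23 of them were called in the edgeR quasi-likelihood test at an adjusted p under 0.05, 10 higher and 13 lower in Tet2 KO. That is 2.84% of the members tested, while 16.2% of all 16406 genes tested were called, 6.11% higher and 10.1% lower. The members were low in counts: their median log2 CPM was -0.72, that of protein-coding genes 4.12. Among genes with a mean log2 CPM under 0, 13 of 520 members (2.50%) and 5.3% of protein-coding genes were called. At 0 or above, these were 10 of 289 members (3.46%) and 19.0%. That class has no upper limit and its members had a median log2 CPM of 1.46, so the level is not matched within it. The median log2 fold change was -0.11 over the members tested and 0.00 over all genes tested. In 16.1% of the members tested, and in 34.6% of all genes tested, the libraries of the genotypes did not overlap.

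**Figure D3:**
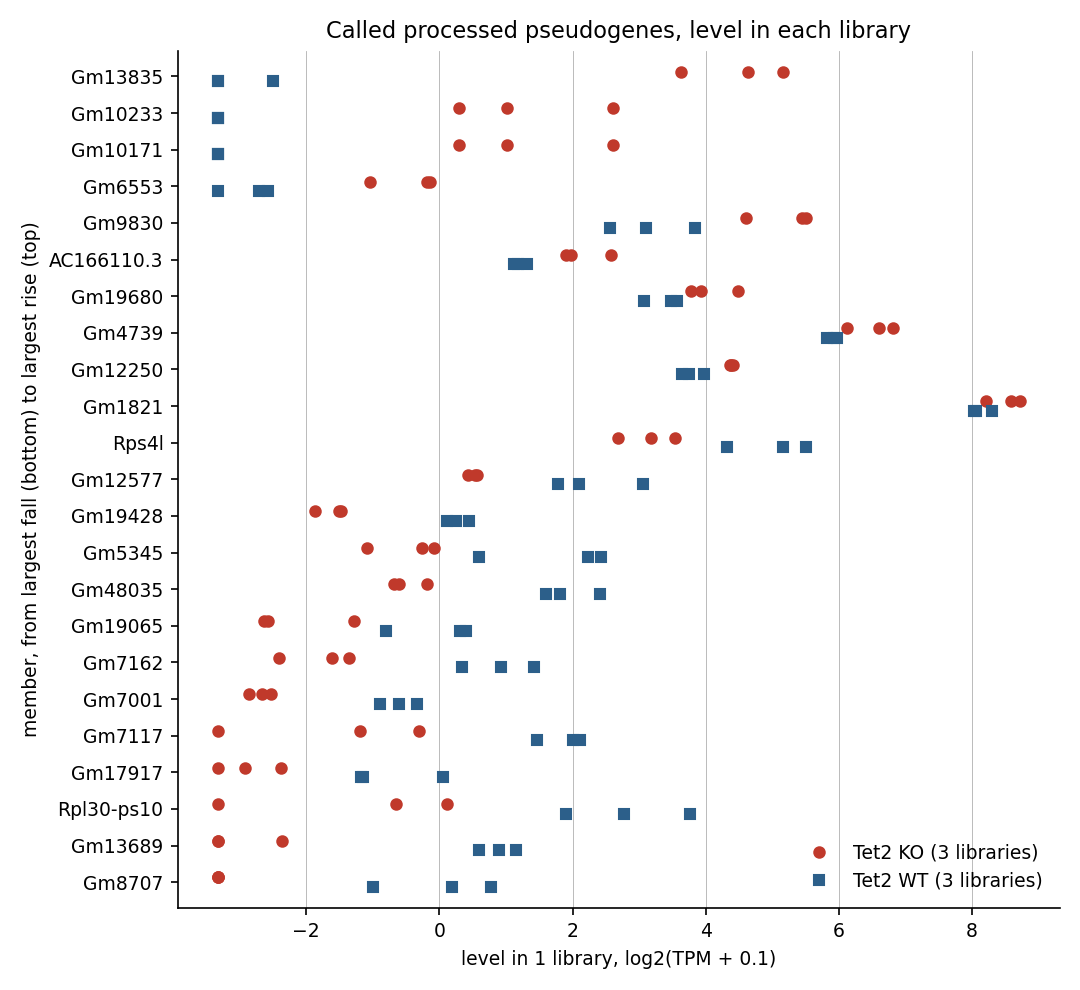
Level of the 23 called members in each library as log2(TPM + 0.1), with red circles for the 3 Tet2 KO and blue squares for the 3 Tet2 WT libraries, ordered by log2 fold change. Points at the left edge are libraries with the member at or next to 0; Gm1821 is the called member whose libraries overlap in TPM.

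The called members are given here by sequence class and direction, as counts. Of the 10 that were higher in Tet2 KO, 7 had under 10% unique 31-mers, a class with 156 tested members. Of the 13 that were lower, 11 had at least 50%, a class with 469 tested members. Over all genes tested, 6.11% were called higher and 10.1% lower, and neither class stands above that share. Of the 13 falls and 10 rises, 9 calls remained whichever single library was left out: Gm13835, Gm10233, Gm10171, Gm9830, AC166110.3, Gm8707, Gm13689, Gm48035 and Rps4l. Gm7162 lost its call without Tet2 WT replicate 1 (adjusted p = 0.0767), Gm12250 without Tet2 KO replicate 3 or Tet2 WT replicate 3 (up to 0.0621) and Gm4739 without Tet2 KO replicate 3 or Tet2 WT replicate 1 (up to 0.0607). Without Tet2 KO replicate 3, Tet2 WT replicate 1 or Tet2 WT replicate 3, Gm19680, Gm7001 and Rpl30-ps10 lost theirs (up to 0.128, 0.0737 and 0.119). Gm1821, Gm5345 and Gm6553 lost it in 4 of the 6 fits (up to 0.11, 0.0926 and 0.0876), Gm12577, Gm17917 and Gm7117 in 5 (up to 0.186, 0.216 and 0.16), and Gm19065 and Gm19428 in all 6 (up to 0.158 and 0.142). All kept their direction in these fits. Gm10233 and Gm10171 have the same sequence and values and are 1 observation. In the fit of single transcripts, which tests 54009 rows, only Gm13835, Gm10233, Gm10171 and Gm48035 were called; Gm9830, Rps4l, Gm8707, Gm13689 and AC166110.3 had adjusted p of 0.051, 0.051, 0.0597, 0.0611 and 0.0619 there. With limma on TPM values, AC166110.3 was not called after adding 1 or 0.1 (adjusted p = 0.0576 and 0.0606), nor were Gm1821 (0.184 and 0.18) and Gm19680 (0.0761 and 0.0725). A parent could be tested for 16 of the called coding-sequence copies, and the parent itself was called for 2 of them, Gm6553 and Gm19680.

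The largest rise was that of Gm13835 (ENSMUSG00000086922.2; chr6:31141979-31142663, minus strand, within an intron of the noncoding RNA gene Lncpint on the same strand), a full-length identical copy of Psma3, which encodes an alpha subunit of the proteasome core. It received 483, 261 and 510 estimated counts in the Tet2 KO libraries and 0, 1.60 and 0 in the Tet2 WT libraries. All 3 Tet2 KO libraries were far above all 3 Tet2 WT libraries. The ratio of the summed counts, scaled to library totals, was 662 with a 95% counting interval of 183 to 5474, and the log2 fold change was 9.34 ± 0.77 (adjusted p = 0.000105). None of its 31-mers is unique, so these counts are shares divided by the model. The interval covers neither that division nor the spread between libraries. Psma3 stood at 184, 174 and 168 CPM in Tet2 KO against 212, 185 and 178 CPM in Tet2 WT (log2 fold change -0.13 ± 0.12, adjusted p = 0.555). The isoforms of Psma3 did not all move alike, and the 2 given here were picked with their values known. ENSMUST00000160864.7 had 1986, 2573 and 2631 estimated counts in Tet2 KO and 4140, 4097 and 3787 in Tet2 WT, without overlap, whereas ENSMUST00000071704.3 had 1410, 2284 and 2171 against 2213, 1556 and 1515, which overlap. Copy and gene together had 6863, 9231 and 9307 counts in Tet2 KO and 11097, 10308 and 9688 in Tet2 WT, of which the copy took 7.03, 2.83 and 5.48% and at most 0.02%.

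Gm10233 (chr14:66045080-66045707, plus strand, in an intron of Adam2 on the opposite strand) and Gm10171 (chr1:172144274-172144901, minus strand, in no other gene) share 1 sequence, which is also that of Timm23, a channel subunit of the mitochondrial inner membrane import machinery. kallisto gave both the same values, so they are 1 observation listed under 2 names: 72.0, 36.3 and 20.7 estimated counts in Tet2 KO and 0 in each Tet2 WT library. Against a floor of 3 counts per library, Tet2 KO was at least 17.1-fold higher. The fitted log2 fold change of each was 8.72 ± 1.35 (adjusted p = 0.00449). Counting Timm23, 2 coding genes were as close to this sequence, and Timm23 is the one taken as the parent. Timm23 itself stood at 107, 82.8 and 84.0 CPM in Tet2 KO against 92.8, 84.1 and 82.6 CPM in Tet2 WT, which overlap, and was not called (log2 fold change 0.08 ± 0.14, adjusted p = 0.77).

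Gm9830 (chr9:44464243-44464599, plus strand) is identical to a part of Ramac, which activates the methyltransferase that caps messenger RNA. It stood at 43.5, 24.2 and 45.1 TPM in Tet2 KO against 8.49, 5.78 and 14.2 TPM in Tet2 WT, without overlap, a ratio of 3.96 of the means (log2 fold change 2.15 ± 0.41, adjusted p = 0.00713). Ramac was at 74.9, 57.0 and 64.9 TPM in Tet2 KO against 68.8, 76.5 and 73.4 TPM in Tet2 WT (log2 fold change 0.01 ± 0.13, adjusted p = 0.982). The share of the pair's counts on the copy was 7.81, 6.01 and 9.43% in Tet2 KO and 1.74, 1.12 and 2.86% in Tet2 WT. For these 4 members without a unique 31-mer the counts cannot be tied to the copy apart from its parent.

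The other rises among near-identical copies were smaller or went with their parents. Gm1821 averaged 150 ± 21.4 CPM (SD over 3 libraries) in the Tet2 KO libraries and 104 ± 8.96 CPM in the Tet2 WT libraries (log2 fold change 0.54 ± 0.14, adjusted p = 0.0289), and Ubb, its parent, had a log2 fold change of 0.51 ± 0.17 (adjusted p = 0.0692). Gm4739, which differs from the chromatin protein gene Hmgb2 at under 1 position in 100, had 113, 69.8 and 96.6 TPM in Tet2 KO against 56.1, 62.6 and 60.5 TPM in Tet2 WT, without overlap. Its log2 fold change was 0.80 ± 0.18 (adjusted p = 0.0141) and that of Hmgb2 0.52 ± 0.17 (adjusted p = 0.0665). Gm19680, a copy of the polyamine oxidase gene Paox at 99.9% identity, rose by a log2 fold change of 0.87 ± 0.23 (adjusted p = 0.0285) and Paox by 0.83 ± 0.23 (adjusted p = 0.033, up to 0.132 with 1 library left out, where 4 of 6 fits lost the call). Gm6553, a copy of the G protein-coupled receptor gene Gpr31b at 99.4% identity, had 16.9, 25.5 and 12.1 estimated counts in Tet2 KO and 1.51, 2.16 and 0 in Tet2 WT. Its log2 fold change was 3.89 ± 0.92 (adjusted p = 0.0178) and that of Gpr31b 2.13 ± 0.64 (adjusted p = 0.0493). The call of Gpr31b was lost in 5 of the 6 fits without 1 library (up to 0.172), with upper-quartile scaling (0.0517) and with limma voom (0.115). Gm6553 was named after its values were seen. With the libraries scaled to the pan-macrophage markers, which moves the median of all genes to -0.69, the 3 smaller rises were no longer called and stood at -0.16 for Gm1821, 0.11 for Gm4739 and 0.20 for Gm19680, while Gm6553 stood at 3.26 and was still called (edgeR adjusted p = 0.0184).

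The rises that rest on sequence of their own were those of Gm12250 and AC166110.3. Gm12250 (ENSMUSG00000082292.3; chr11:58187739-58189012, plus strand, in no other gene) is a processed pseudogene in GENCODE M21, while the RefSeq gene table lists it as protein-coding with the synonym Irgb10, an interferon-inducible GTPase that acts on membranes of intracellular pathogens. All of its 31-mers are unique. It stood at 20.4, 20.7 and 21.2 TPM in Tet2 KO against 15.5, 13.3 and 12.4 TPM in Tet2 WT, with every Tet2 KO library above every Tet2 WT library, 1.51-fold in the means (log2 fold change 0.76 ± 0.18, adjusted p = 0.0166). The interferon-inducible GTPase genes Irgm1 and Igtp, which are no pseudogenes, had log2 fold changes of 0.80 ± 0.13 and 0.71 ± 0.13 (adjusted p = 0.00264 and 0.00529), and Gbp2 one of 0.10 ± 0.23 (adjusted p = 0.824); these 3 were picked with results of these data known. AC166110.3, with 82.3% unique 31-mers and no parent, stood at 5.88, 3.81 and 3.64 TPM in Tet2 KO against 2.40, 2.08 and 2.16 TPM in Tet2 WT, again without overlap (log2 fold change 1.16 ± 0.24, adjusted p = 0.00952). With the pan-macrophage scaling, Gm12250 stood at 0.06 and AC166110.3 at 0.45, and neither was called (edgeR adjusted p = 0.865 and 0.23).

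Among the falls, Rps4l had the highest level. Rps4l (ENSMUSG00000063171.4; chr6:148354656-148355598, plus strand, in an intron of Tmtc1 on the opposite strand) resembles Rps4x, which encodes a protein of the small ribosomal subunit, below the identity limit used for parents, and 74.0% of its 31-mers are unique. It stood at 11.5, 8.98 and 6.32 TPM in Tet2 KO against 45.1, 19.8 and 35.8 TPM in Tet2 WT, with no overlap, 3.77-fold lower in the means of Tet2 KO (log2 fold change -1.67 ± 0.33, adjusted p = 0.00828). Rps4x had a log2 fold change of -0.15 ± 0.19 (adjusted p = 0.67). Tmtc1, which encodes a mannosyltransferase, fell by 2.01 ± 0.22 on the log2 scale (adjusted p = 0.000308).

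Gm13689 (chr2:80549712-80550396, minus strand) lies in an intron of Nckap1, a gene of the WAVE actin-regulating complex, on the same strand. It received 0, 2 and 0 estimated counts in Tet2 KO and 39, 29 and 33 in Tet2 WT. The ratio of the summed counts, scaled to library totals, was 47.8 with a 95% counting interval of 12.9 to 400.2, and the log2 fold change was -5.23 ± 0.96 (adjusted p = 0.00553). Its parent Ngly1 had a log2 fold change of 0.09 ± 0.17 (adjusted p = 0.795), while Nckap1 stood at 12, 11.8 and 12.5 CPM in Tet2 KO against 125, 56.3 and 107.8 CPM in Tet2 WT (log2 fold change -2.99 ± 0.27, adjusted p = 0.0002). Gm13689 has 99.8% unique 31-mers.

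Gm17917 (chr10:27280718-27281670, plus strand) and Gm12577 (chr4:58483252-58483825, minus strand) showed the same arrangement. Gm17917, a copy of the nucleolar protein gene Npm1 at 82.0% identity, lies in an intron of the laminin gene Lama2 on the opposite strand and received 0, 3 and 1 counts in Tet2 KO and 9.75, 11 and 27 in Tet2 WT. Its log2 fold change was -3.29 ± 0.97 (adjusted p = 0.0455), that of Lama2 -3.45 ± 0.25 (adjusted p = 8.7e-05) and that of Npm1 -0.08 ± 0.12 (adjusted p = 0.708). The call of Gm17917 was lost with DESeq2 (adjusted p = 0.0819) and without the expression filter (0.115). Gm12577, a copy of the splicing-related gene Rsrc2, lies in an intron of the lysophosphatidic acid receptor gene Lpar1 on the same strand and received 13.1, 22.3 and 22.1 counts in Tet2 KO and 59.4, 53.7 and 120.1 in Tet2 WT. Its log2 fold change was -1.81 ± 0.50 (adjusted p = 0.0356), that of Lpar1 -2.18 ± 0.20 (adjusted p = 0.000177) and that of Rsrc2 -0.05 ± 0.12 (adjusted p = 0.825); limma voom gave Gm12577 an adjusted p of 0.0511. In both members the genotypes did not overlap, and Gm12577 was named after its values were seen.

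Gm7162 (chr17:12819819-12820842, minus strand) lies in an intron of Airn, the noncoding RNA gene at the imprinted Igf2r locus, on the opposite strand. It received 2, 8 and 10 counts in Tet2 KO and 81, 40 and 56.1 in Tet2 WT, with no overlap (log2 fold change -2.96 ± 0.63, adjusted p = 0.0114), while its parent Rangap1 had a log2 fold change of 0.26 ± 0.14 (adjusted p = 0.246). Gm7117 (chrX:105725128-105725514, minus strand), a copy of Rpl12 with 42.6% unique 31-mers, received 4.09, 3.07 and 0 counts in Tet2 KO and 32.7, 23.4 and 31.9 in Tet2 WT, again without overlap (log2 fold change -3.28 ± 0.90, adjusted p = 0.035). Of the Rpl12 stretch that Gm7117 matches, only 5.17% is coding sequence. Rpl12 had a log2 fold change of -0.24 ± 0.22 (adjusted p = 0.521). Another copy, Gm10275, held 86.5% of the counts of its pair with Rpl12, so the value of Rpl12 rests on the smaller share.

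Gm8707 (chr9:41654303-41655282, plus strand) was the largest fall. It had no counts (0) in the Tet2 KO libraries, whereas the Tet2 WT libraries had 31, 13 and 47.9, so that Tet2 KO was at least 9.45-fold lower against a floor of 3 counts per library. Its fitted log2 fold change was -8.05 ± 1.29 (adjusted p = 0.00541). Gm8707 matches 3 coding genes equally well, at 80.8% identity; the one taken as its parent, Gm10358, was too low to be tested. Gm8707 overlaps an exon of Gm49317 on the same strand. Gm5345, a Gapdh copy of 2 exons at 90.7% identity, received 19, 13 and 25 counts in Tet2 KO and 142, 48 and 163 in Tet2 WT, without overlap (log2 fold change -2.37 ± 0.58, adjusted p = 0.0211). Gapdh averaged 822 ± 130 CPM (SD over 3 libraries) with the Tet2 KO genotype and 757 ± 39.95 CPM with Tet2 WT (log2 fold change 0.12 ± 0.15, adjusted p = 0.664). Gm48035, a copy of the zinc finger gene Gm10324 at 84.7% identity, received 26.8, 29.6 and 27.1 counts in Tet2 KO and 248, 151 and 161 in Tet2 WT (log2 fold change -2.47 ± 0.41, adjusted p = 0.0031). In all 3 the Tet2 KO libraries lay below the Tet2 WT libraries.

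The other 4 falls were named with their values known. Rpl30-ps10 (chrX:71803688-71804034, plus strand), a copy of Rpl30 with 3.15% unique 31-mers, received 0, 7.56 and 3.99 counts in Tet2 KO and 44, 27 and 92.6 in Tet2 WT (log2 fold change -3.59 ± 0.90, adjusted p = 0.0232). Gm7001, a copy of Cdk5rap3, received 2, 4 and 2 counts in Tet2 KO and 21, 29 and 33 in Tet2 WT (log2 fold change -3.09 ± 0.67, adjusted p = 0.0123). Gm19065 and Gm19428, which have no parent and several exons, had log2 fold changes of -2.65 ± 0.73 and -2.11 ± 0.56 (adjusted p = 0.0356 and 0.0291). Each of the 4 stayed below 10 counts in every Tet2 KO library and above 10 in every Tet2 WT library.

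Within a library, the ratio of a copy to its parent needs no scaling between libraries. For the 21 named pairs of a member and its matched coding gene, the log2 ratio of copy to parent counts was taken, with 0.5 added to each. The ratio was compared by a 2-sided exact permutation test over the 20 assignments of libraries, whose smallest p is 0.1. Gm12481 with Fam221b is among the 21, although these overlap at 1 place and are not a copy and its parent. In 14 pairs the genotypes did not overlap (exact p = 0.1, 0.15 adjusted over the 21 pairs), so none could pass the threshold. The 14 include Gm10233 and Gm10171, which are 1 observation. They also include Gm48035 and Gm8707, whose parents Gm10324 and Gm10358 had at most 3.17 and 9.85 counts in a library. For Gm8707 in Tet2 KO replicate 1, copy and parent were both at 0, so that ratio holds only the amount added. Most of the 21 pairs were named because the copy was called or lay far from its parent's fold change, and for those the ratio restates that choice and is a description; Gm15500 and Gm8818, which are among the 14, were named for their level. The ratio was higher in Tet2 KO by 9.34 for Gm13835 to Psma3, by 2.18 for Gm9830 to Ramac, by 0.95 for Gm8818 to 4930453N24Rik, by 0.39 for Gm15500 to Rpl5 and by 0.27 for Gm4739 to Hmgb2, all on the log2 scale. It was lower for Gm13689 to Ngly1, with a difference of -5.12, for Gm7162 to Rangap1 with -3.24 and for Gm17917 to Npm1 with -3.08. Where libraries are at or near 0 the size depends on the amount added: with 5 added to each count the differences were 6.59 for Gm13835, -2.59 for Gm13689 and -1.32 for Gm17917, and from TPM with 0.1 added they were 7.81, -3.72 and -1.88. For Gm10123 to Ppia, Gm1821 to Ubb, Gm10177 to Sec61g, Tpt1-ps3 to Tpt1 and Gm19680 to Paox the differences were 0.01, 0.04, 0.05, 0.05 and 0.00, and the genotypes overlapped.

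Fold changes of copy and parent were set side by side across members, as a description. Over 451 tested copies with a tested parent, Pearson's r of the 2 log2 fold changes was 0.08 and Spearman's rho 0.13; the points share the 6 libraries, and copies of 1 parent share its value (306 parents). In the 60 copies with some but under 10% unique 31-mers, r was 0.48 and rho 0.49. In the 50 copies without a unique 31-mer r was 0.01 and rho -0.05, in the 124 copies with 10 to under 50% they were 0.11 and 0.20, and in the 217 copies with at least 50% they were 0.00 and 0.03. Members without a unique 31-mer had the highest median SD within a genotype of the 4 classes, a median SD of log2(CPM + 0.5) of 0.45 among those at 1 CPM or more (n = 50), against 0.32 among those with at least 50% (n = 125).

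**Figure D4:**
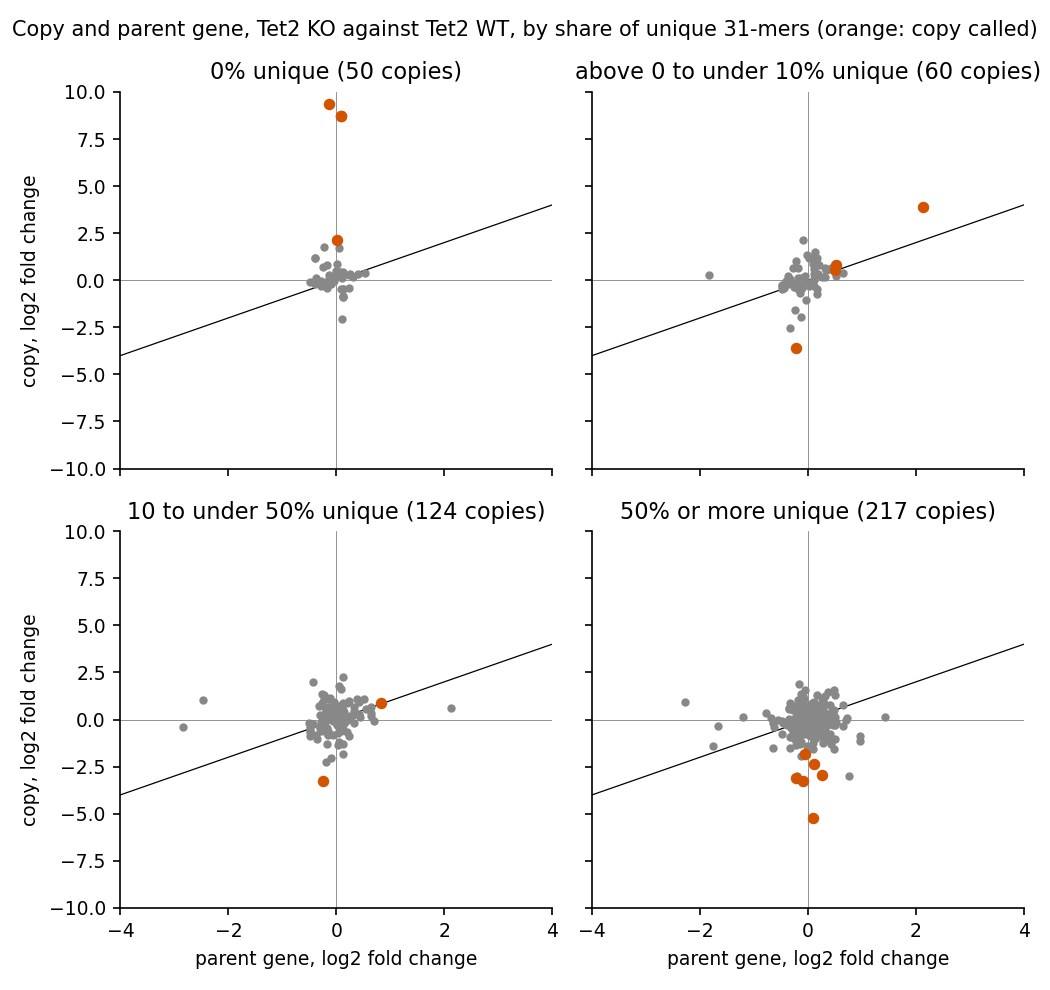
Log2 fold change, Tet2 KO against Tet2 WT, of each tested coding-sequence copy (y axis) against that of its parent gene (x axis), in 4 panels by the share of unique 31-mers; orange points are called copies and the line marks equal change. Called copies without unique 31-mers and with at least 50% lie far from the line, with parents near 0. So do Rpl30-ps10 and Gm7117 in the panels between, where Gm1821, Gm4739 and Gm19680 lie near the line and Gm6553 lies above it.

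Many members lie inside other genes, and their fold changes were set beside those of the gene around them, as a description over members that share the 6 libraries. Of the members, 298 lie in an intron of another gene on its strand, 371 in an intron on the opposite strand, 51 over an exon on the same strand, 85 over an exon on the opposite strand, and 696 in no other gene. The sources used here do not say that the counting used strand, so reads of a host gene's unspliced RNA and of a member in its intron cannot be told apart by strand. Over 162 members in an intron of a tested gene on the same strand, r with the host gene's log2 fold change was 0.48 and rho 0.36, and over 142 on the opposite strand 0.37 and 0.46. For the 192 intronic members with at least 50% unique 31-mers both were 0.51.

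Where the host gene was called lower, 12 of 15 same-strand members and 12 of 16 opposite-strand members had a negative log2 fold change, with medians of -0.75 and -0.50. Where the host was called higher, 12 of 18 and 14 of 17 were positive, with medians of 0.51 and 0.43. Where it was not called, the medians were -0.03 and -0.04 over 129 and 109 members. Only Gm13689, Gm12577, Gm17917 and Rps4l were themselves called among members with a tested and called host, each with a host that was lower. Their hosts Nckap1, Lpar1, Lama2 and Tmtc1 moved in the direction of the fibroblast markers. All 14 of those markers were lower in Tet2 KO, at a median of -3.01 on the log2 scale. The part of such cells in the result was not tested. Among the uncalled named members, Gm8818 and Gm10177 moved against their hosts, both on the opposite strand. Gm8818 stood at 0.62 and its host Lamc1 at -2.64 (edgeR adjusted p = 0.000151). Gm10177 stood at -0.19 and its host Slc37a2 at 0.81 (edgeR adjusted p = 0.00762).

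**Figure D5:**
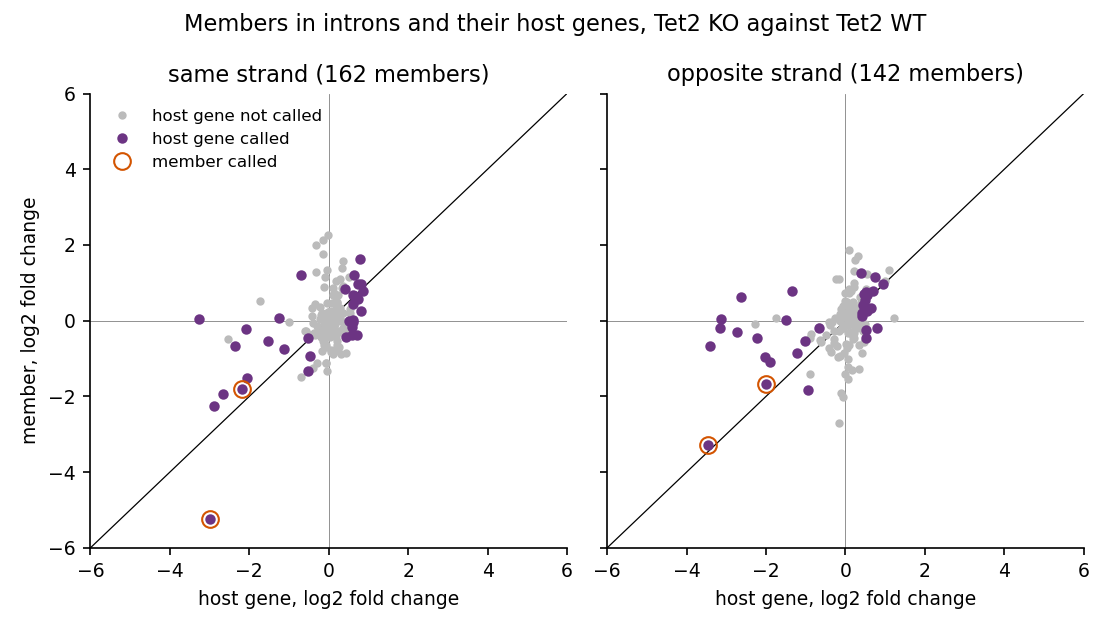
Log2 fold change, Tet2 KO against Tet2 WT, of each tested member within an intron (y axis) against that of the host gene (x axis), for introns on the member's strand (left) and on the opposite strand (right); purple points have a called host, orange rings mark called members and the line marks equal change. The 4 ringed members lie at negative values of both.

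By function of the parent, the copies of cytosolic ribosomal protein genes were tested in 104 cases, with 2 called lower (Rpl30-ps10 and Gm7117), 0 higher and a median difference of 0.02 on the log2 scale. In the edgeR test 7 of the 104 had an unadjusted p under 0.05, DESeq2 also called 2 lower, limma voom 3 lower and limma on log2(TPM + 1) 1 higher and 6 lower. Over all genes tested edgeR called 16.2%. Of the 79 ribosomal protein genes themselves edgeR called 0, with 1 at an unadjusted p under 0.05 and a median of -0.16; DESeq2 and limma voom called 0 and limma on log2(TPM + 1) called 3 lower. Of 24 tested copies of glycolytic enzyme genes, Gm5345 was lower and the median was -0.10, while 2 of the 13 glycolysis genes were higher (5 with DESeq2, 0 with limma on log2(TPM + 1)). Gm4739 was the call among 18 tested copies of chromatin protein genes, Gm17917 among 15 of RNA-binding and splicing genes (0 with DESeq2), and Gm1821 and Gm13835 among 6 of ubiquitin and proteasome genes. For 43 copies of genes of translation factors, oxidative phosphorylation, the cytoskeleton and chaperones, edgeR gave 0 calls, with 1 at an unadjusted p under 0.05, and DESeq2 and limma voom called 1 higher. The copies of a list share reads with each other, so these counts describe the list and no more.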

How the data were processed

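The submitters' processing notes name Trim Galore 0.6.4, kallisto 0.44.0 and the build GRCm38; no annotation release is given in the sources used here. Each deposited table holds, per the file headers, 1 estimated count and 1 TPM value per transcript. kallisto divides the reads of shared sequence between transcripts, and TPM is scaled within each library. Of 118783 transcripts, 116710 (98.3%) matched GENCODE M21 by identifier without version, and 99.8% of these had the same length there; the 2073 others held at most 0.613% of a library's counts and were left out. Estimated counts were summed per gene, rounded and passed to the quasi-likelihood test of edgeR 4.0.16 (TMM scaling, expression filter with a minimum count of 10, robust fit; R 4.3.3), with Benjamini-Hochberg adjustment over all 16406 genes tested; the standard error is the size of the log2 fold change divided by the root of F. On counts simulated for Tet2 KO against Tet2 WT (16406 genes, 200 of them altered), 7% of the 2-fold and 82% of the 4-fold changes were found, and 4.3% of calls were false. The simulation gave every gene the same preset dispersion, not the one estimated from these libraries. Its shares are over all genes, so they do not give the recovery among members or in the real fit. Each library held at least 37349505 counts, and intervals and floors cover counting error only. No 2 libraries of a genotype agreed within sampling noise (chi-square per gene at least 69.1).

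Parents were searched with BLAST 2.17.0 (expect value 1e-10) among listed transcripts of protein-coding genes, and the position comes from the GENCODE annotation. Genes were named by a rule: the 8 highest mean TPM, the 6 largest called rises and the 6 largest falls among members whose genotypes do not overlap and whose mean log2 CPM is 0 or more, the 6 highest mean counts with at least 50% unique 31-mers, up to 4 members under 1 count in each library of 1 genotype and at least 10 in each of the other, the 4 called members with at least 10% unique 31-mers furthest from their parent's fold change, the parents of all these, Tet2, and 3 rows on each side of the count limit. Host genes, Rps4x, Irgm1, Igtp, Gbp2 and those the text marks fall outside it. Where several coding genes were equally close, 1 is given as the parent. The members, lists and rule were chosen with earlier results of these data known. Alternatives were RLE and upper-quartile scaling, other filters, each library left out, a replicate block, a transcript-level fit, length-scaled TPM counts, DESeq2 1.42.0, limma 3.58.1 on voom and log2(TPM) values and other limits for members, parents and 31-mers; scaling to pan-macrophage markers and the requirement of coding sequence in a match were chosen after seeing the data. The sequence of 1 member, AC133103.2, was not used here.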

Additional observations from a re-analysis of the deposited data

How the results depend on the processing

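The 10 higher and 13 lower calls among members came out as 10 and 13 with RLE scaling, upper-quartile scaling and length-scaled TPM counts, and all 23 members were shared. DESeq2 called 17 higher, and limma on log2(TPM + 1) 16 higher and 37 lower. With limma on log2(TPM + 0.1), 30 were lower, and a minimum count of 50, which tests fewer genes, left 3 lower. Over all genes tested, DESeq2 called 1448 higher, and limma on log2(TPM + 1) 384 higher and 1928 lower. There, limma on log2(TPM + 0.1) called 1923 lower and the minimum count of 50 left 1665 lower. The transcript-level fit called 3 higher and 1 lower, beside 238 higher and 1190 lower over all 54009 rows tested. Scaled to the pan-macrophage markers, which moves the median of all genes to -0.69, the calls were 5 higher and 98 lower. Of all 16406 genes tested, 23 were called higher and 6877 lower with that scaling. Leaving out 1 library gave 6 to 19 higher and 6 to 22 lower: 19 and 22 without Tet2 KO replicate 2, 6 and 7 in the fit that lacks Tet2 WT replicate 1, 8 and 6 without Tet2 KO replicate 3, and 9 and 8 when Tet2 WT replicate 3 was left out. Over all genes tested, the fits without 1 library called 350 to 1399 higher and 1033 to 1734 lower, against 1003 and 1652 with all libraries. With the replicate number as a block (replicate block) 11 members were higher and 9 lower, 18 of them shared. All genes gave 791 higher and 1558 lower with the block. Libraries of the same number correlated at 0.08, 0.17 and 0.06 in their deviations from the group means, and not every library correlated best with its own number, since Tet2 KO replicate 3 did so with Tet2 WT replicate 1 (0.07); the numbers are treated as names only. Sums of at least 60 and 200 left 808 and 376 members, the latter with 0.744% of the Tet2 WT TPM against 0.844%. The median unique share was 58.5% with 21-mers and 90.0% with 51-mers. The pan-macrophage scaling changes the factor of each library and lowers most log2 fold changes, so that small positive ones turn negative by construction. The shift differed between genes: Gm10233 went from 8.72 to 8.39 and Gm5345 from -2.37 to -3.13. Gm1821 stood at -0.16, Gm46223 at -0.65, Gm8818 at -0.068, Timm23 at -0.62, Ubb at -0.19, Ngly1 at -0.61 and Rangap1 at -0.42 with this scaling. Ramac stood at -0.68, Hmgb2 at -0.17, Gapdh at -0.56, Gm10123 at -0.41, Ppia at -0.44, Gm12481 at -0.54 and Fam221b at -0.51. Under other alternatives only uncalled genes changed sign, and the cause was not tested. With limma on log2(TPM + 1) and log2(TPM + 0.1), Gm46223 stood at -0.16 in both, Timm23 at -0.090 and -0.091, Ngly1 at -0.16 in both, Ramac at -0.16 in both Gapdh at -0.049 in both, Gm12481 at -0.10 in both and Fam221b at -0.0063 and -0.011. Ramac was also at -0.019 with a minimum count of 50, at -0.0033 with limma voom and at -0.011 with length-scaled TPM counts. When 1 library was left out, Gm46223 ranged from -0.17 to 0.17, Timm23 from -0.050 to 0.15, Ngly1 from -0.12 to 0.23, Rsrc2 from -0.089 to 0.0031, Ramac from -0.084 to 0.082, Gapdh from -0.012 to 0.21, Gm12481 from -0.25 to 0.32, Gm15500 from -0.092 to 0.040 and Fam221b from -0.095 to 0.40.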

Other observations

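A set of members matched a coding gene outside its coding sequence or in reverse. They number 169 and held 22.8% of the counts on members. Of these, 37 matched D10Wsu102e, at a median length of 3835 bases, and 24 matched the vomeronasal receptor gene Vmn2r53, at 3402 bases, against 746 bases over all members. They were tested in 36 and 22 cases, with median log2 fold changes of -0.42 and -0.37. Of 132 tested genes of the whole set edgeR called 0, with 4 at an unadjusted p under 0.05; DESeq2 called 0, limma voom 1 lower and limma on log2(TPM + 1) 1 higher and 3 lower. By annotation, 6 of 114 tested transcribed processed pseudogenes (5.26%) and 17 of 695 processed pseudogenes (2.45%) were called, beside 16.2% of all genes tested; the difference between the 2 types was not tested.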
